A study of Mus musculus with 6 samples.

Results

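The 10 genes described here encode transcription factors of mesenchymal cells and of the epithelial-mesenchymal transition (EMT): Snai1, Snai2, Zeb1, Zeb2, Twist1, Twist2, Prrx1, Prrx2, Hand2 and Tcf21. They were taken by name from the 54752 gene rows of the deposited table, and all 10 were found there. They were measured by RNA-seq in mouse embryonic fibroblasts, cells grown out of dissected embryos, which the labels of all 6 libraries describe as a p53-deleted line. The shARF group (3 libraries; genotype label "ARF knockdown", treatment p19ARF shRNA) carries a lentiviral short hairpin RNA against ARF. The shNT group (3 libraries; genotype label "WT", treatment negative control shRNA) carries a control hairpin delivered in the same way. The titles of all 6 libraries also carry the tag "neo", which the titles do not explain. The labels name no clone, embryo age, sex or time after infection. They call the libraries biological replicates without tying them to their own cultures, so each p-value reflects the spread among the 6 libraries, which may be technical.

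EMT is the programme by which polarised epithelial cells lose their junctions and become migratory mesenchymal cells. SNAIL and ZEB zinc finger proteins repress E-cadherin and other junction genes through E-boxes, and TWIST, HAND and TCF21 proteins are basic helix-loop-helix (bHLH) factors that bind E-boxes as dimers. PRRX proteins are homeodomain factors of limb and craniofacial mesenchyme. Fibroblasts are already mesenchymal, so they normally carry many of these factors, while HAND2 and TCF21 mark more restricted lineages such as heart, limb bud, visceral and epicardial mesenchyme.

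Libraries held 40.3 M to 47 M counts. The hairpin's target gene, Cdkn2a, which encodes p19ARF and p16INK4a, was at 95.6, 103 and 107 CPM (counts per 1 M library counts, scaled by edgeR's TMM factors) in shARF, against 231, 218 and 223 CPM in shNT (log2 fold change -1.14, SE 0.05, adjusted p = 2.52e-06, edgeR). Over all 17128 genes tested, 56.4% were called at an adjusted p under 0.05, 28.8% higher and 27.7% lower in shARF, and the groups were fully apart in CPM for 64.6%. These are 4930 genes higher and 4737 lower; scaled by library size alone, they are 4023 higher and 5874 lower. The groups also differed in sex-linked genes. Xist, the RNA of the inactive X chromosome, averaged 45.7 ± 7.49 CPM in shARF and 387 ± 26.5 CPM in shNT, and Y-linked Kdm5d averaged 19.5 ± 0.623 CPM in shARF and 0.782 ± 0.216 CPM in shNT (SD, n = 3 each). An effect of the hairpin and a difference in the make-up of the cultures therefore cannot be told apart for any gene below. The fibroblast label fits the levels of Col1a1, Col1a2, Col3a1 and Vim, which exceeded 1000 CPM in every library. The 8 fibroblast markers summed to 19477 to 19615 CPM in shARF and 16178 to 17576 CPM in shNT. Of these 8 markers, 5 were higher and 2 lower in shARF: Pdgfra and Dcn fell by 2.46 and 2.12 on the log2 scale. The 7 blood cell markers summed to 1.77 to 2.16 CPM in shARF and 6.88 to 7.72 CPM in shNT.

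Of the 10 genes, 9 had enough counts to be tested. Snai2, Zeb2 and Hand2 were higher in shARF, Twist1, Twist2 and Prrx2 were lower, and Snai1, Zeb1 and Prrx1 did not pass the test. These 3 higher and 3 lower of 9 stand beside 28.8% and 27.7% of all genes, so the share of members called is near that of all genes. The median log2 fold change of the 9 was 0.04, against -0.0080 over all genes tested, and the median size of the change was 0.48, against 0.34. Hand2 alone changed by more than 2-fold. Hand2 passed the filter on low counts only through shARF, where it was high, and Tcf21 did not pass it.

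**Figure D1:**
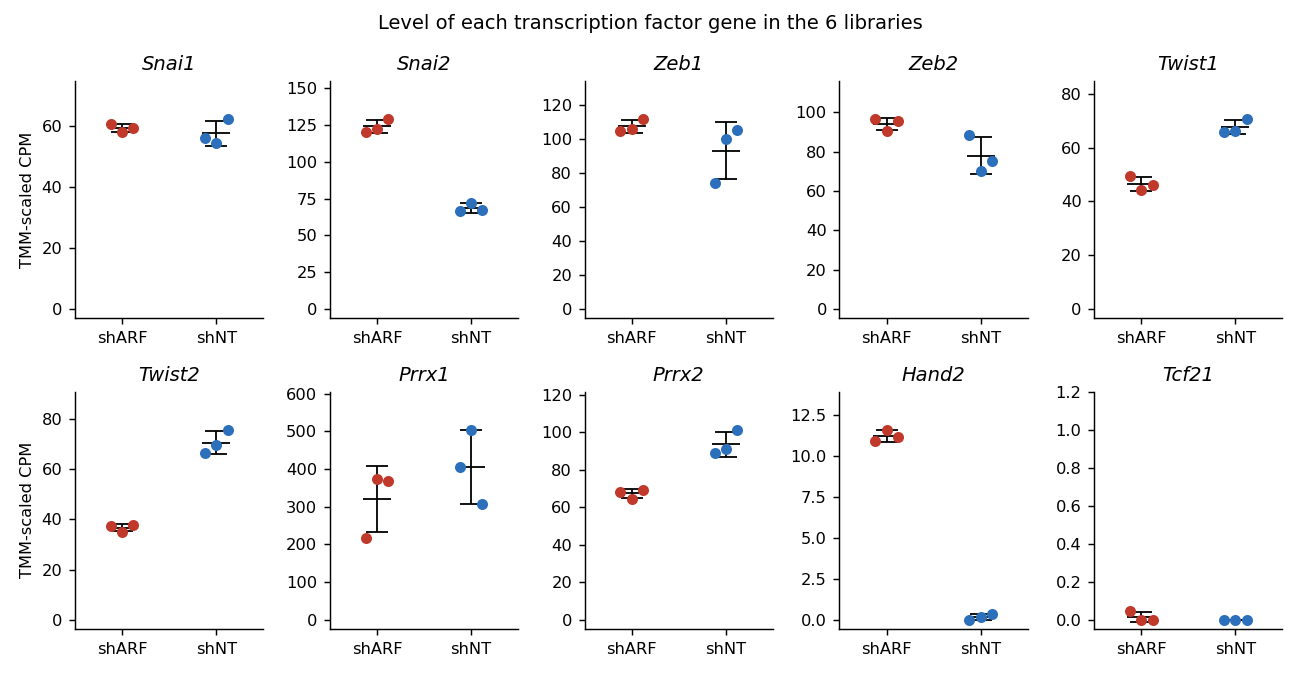
TMM-scaled CPM of each of the 10 genes (vertical axes, linear, from 0, 1 scale per gene) in the 3 shARF and 3 shNT libraries; points are libraries in replicate order, and bars give the mean and SD. Snai2 and Hand2 lie higher, and Twist1, Twist2 and Prrx2 lower, in all 3 shARF libraries, while the groups overlap for Snai1, Zeb1 and Prrx1 and Tcf21 is near 0.

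Among the SNAIL factors, Snai2, which encodes SLUG, had 120, 122 and 129 CPM in shARF, against 66.4, 72.3 and 67.3 CPM in shNT. All 3 shARF libraries lay above all 3 shNT libraries. The means were 124 ± 4.48 CPM in shARF and 68.7 ± 3.15 CPM in shNT (SD, n = 3 each), a 1.80-fold difference (95% interval 1.67 to 1.94; log2 fold change 0.85, SE 0.05, adjusted p = 8e-06, edgeR). Its paralog Snai1, which encodes SNAIL, had 60.7, 58.1 and 59.2 CPM in shARF, against 56.0, 54.6 and 62.3 CPM in shNT. The groups overlapped, and the highest value belonged to an shNT library. The fold was 1.03, with a 95% interval from 0.938 to 1.13 (adjusted p = 0.554, edgeR). Per kilobase of exon, which permits a comparison between genes, Snai2 made up 61.4, 62.8 and 63.6% of the summed level of both genes in shARF, against 48.7, 51.5 and 46.4% in shNT. The shift of 13.7 percentage points separated the groups in all libraries (exact two-sided permutation p = 0.1, the smallest that 3 against 3 libraries can give).

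The ZEB factors are large zinc finger and homeodomain proteins that recruit the corepressor CTBP. Zeb2 had 96.6, 90.7 and 95.5 CPM in shARF, against 88.4, 70.0 and 75.4 CPM in shNT. The groups did not overlap, but the highest shNT library came close to the lowest shARF one. The fold was 1.21 (95% interval 1.05 to 1.39; log2 fold change 0.28, SE 0.08, adjusted p = 0.0288, edgeR). This call was lost with library sizes alone as the scaling (0.18, adjusted p = 0.106), and without shARF replicate 1 (0.26, 0.0793), shARF replicate 3 (0.27, 0.0752), shNT replicate 2 (0.20, 0.0655) or shNT replicate 3 (0.25, 0.0795). Over its 13 alternatives the adjusted p ran between 0.00146 and 0.106. Zeb1 had 105, 106 and 112 CPM in shARF, against 74.1, 100 and 106 CPM in shNT. The shARF libraries lay close together, and shNT replicate 1 stood apart on the low side. The log2 fold change of 0.21 (95% interval -0.10 to 0.51) did not pass the test (adjusted p = 0.209, edgeR). Zeb2 held 31.1 ± 0.949% of the summed level per kilobase of both ZEB genes in shARF and 30.4 ± 6.58% in shNT (SD, n = 3 each; exact permutation p = 1).

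The TWIST genes encode closely related bHLH proteins that act in cranial and limb mesenchyme, and both fell. Twist1 had 49.4, 44.2 and 46.2 CPM in shARF, against 65.9, 66.3 and 70.6 CPM in shNT. Twist2, also called Dermo1, had 37.4, 35.2 and 37.6 CPM in shARF, against 66.4, 69.8 and 75.7 CPM in shNT. For both genes every shARF library lay below every shNT library. Twist1 was at 0.689 of its shNT level (95% interval 0.631 to 0.753; log2 fold change -0.54, SE 0.05, adjusted p = 1.71e-04, edgeR). Twist2 was at 0.520 of its shNT level (0.472 to 0.573; log2 fold change -0.94, SE 0.06, adjusted p = 1.7e-05, edgeR). The intervals of both genes' fold changes do not overlap, and per kilobase Twist2 made up 28.8 ± 0.772% of the pair in shARF and 34.9 ± 0.727% in shNT, with the groups apart (exact permutation p = 0.1, the smallest possible). Summed per kilobase, the TWIST genes stood at 40.2 ± 1.95 CPM per kb in shARF and 63.8 ± 3.08 CPM per kb in shNT, whereas the SNAIL genes stood at 97.9 ± 2.1 CPM per kb in shARF and 69.5 ± 2.16 CPM per kb in shNT (SD, n = 3 each).

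The PRRX genes encode paired-related homeodomain proteins, of which PRRX1 is a broad mark of limb bud and stromal mesenchyme. Prrx2 had 68.3, 64.5 and 69.4 CPM in shARF, against 88.9, 91.0 and 101 CPM in shNT. The groups did not overlap, and Prrx2 was at 0.719 of its shNT level (95% interval 0.653 to 0.792; log2 fold change -0.48, SE 0.06, adjusted p = 4.54e-04, edgeR). Prrx1 had 218, 374 and 369 CPM in shARF, against 404, 504 and 306 CPM in shNT. It varied within each group by more than any other member with at least 1 CPM: the coefficient of variation was 27.7% in shARF and 24.4% in shNT, while counting error alone gives 0.839% and 0.733%. Among 7914 tested genes averaging 20 CPM or more, the median coefficient of variation was 3.00% in shARF and 3.50% in shNT, and the 95th percentile 16.8% and 16.7%. The log2 fold change of Prrx1 was -0.34 with a 95% interval from -0.94 to 0.26 (adjusted p = 0.29, edgeR), an interval that includes the value of Prrx2. The libraries that were low in Prrx1 (shARF replicate 1 and shNT replicate 3) were not those low in Zeb1 (shNT replicate 1) or in Dnm3os, a noncoding microRNA host transcript known to depend on TWIST1, which had 43.2 CPM in shNT replicate 2, against 150 and 141 CPM in the other shNT libraries. The cause of this spread was not tested.

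**Figure D2:**
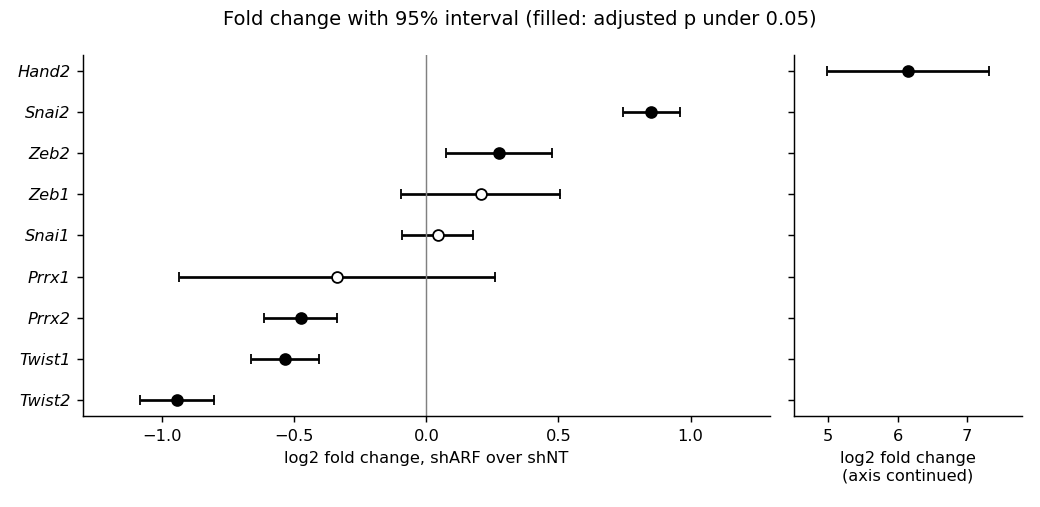
Log2 fold change of shARF over shNT (horizontal axis, broken between panels) for the 9 tested genes, with 95% intervals from the edgeR fit over 3 libraries a group; filled points passed an adjusted p of 0.05. Twist2, Twist1 and Prrx2 lie below 0, Zeb2, Snai2 and Hand2 above it, and Hand2 stands apart at 6.15.

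**Figure D3:**
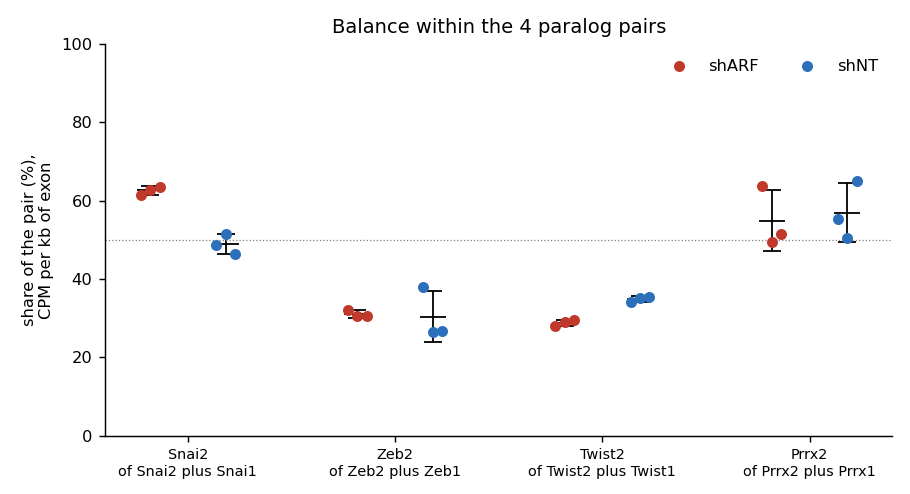
Share of the named paralog in the summed level of its pair (vertical axis, percent of CPM per kilobase of exon), with points for libraries and bars for the mean and SD over 3 libraries a group. The groups separate for Snai2 and for Twist2, in opposite directions, and overlap for Zeb2 and Prrx2.

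Hand2, a bHLH factor of heart, limb bud, branchial arch and sympathetic development, was present mainly in shARF. It had 10.9, 11.6 and 11.2 CPM in shARF, against 0, 0.144 and 0.340 CPM in shNT, which are 490, 509 and 499 counts in shARF, against 0, 7 and 14 counts in shNT. Its fold was 71.1, with a 95% interval from 31.7 to 159 (log2 fold change 6.15, SE 0.49, adjusted p = 5.44e-05, edgeR). The size of this fold rests on the few shNT counts: the log2 fold change was 7.19 without shNT replicate 3, 5.56 without shNT replicate 1 and 7.10 with limma-voom. Hand2os1, the noncoding transcript that starts within the Hand2 gene and runs back across it on the other strand, had 26, 28 and 11 counts in shARF, against 0, 0 and 0 counts in shNT. With the shNT group set to 3 counts in all, the limit that a count of 0 allows, Hand2os1 was at least 22.1-fold higher, a bound that covers counting error only. Like Hand2, it passed the filter on low counts only through shARF. The 2 genes share 461 bases of exon on opposite strands, and the sources do not state whether the counting used strand, so reads there cannot be told apart. The nearest tested protein-coding genes did not move that way: Sap30 and Fbxo8, 158 kb and 727 kb away, fell by 0.14 and 0.48 on the log2 scale (adjusted p = 0.0461 and 0.0142, edgeR). In a bulk sample, a change in the number of cells that carry a transcript and a change in its amount per cell cannot be told apart.

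Tcf21, a bHLH factor of epicardial, lung and kidney mesenchyme, was close to absent: 2 counts in shARF replicate 1 and 0 counts in the other 5 libraries. With 3 counts over a group as the floor, no fold can be given. The noncoding gene Gm10824, which lies over Tcf21 on the opposite strand without sharing exons with it, did differ. It had 0, 0 and 0 counts in shARF, against 33, 37 and 37 counts in shNT, which with 3 counts allowed over the shARF group is at least 35.2-fold lower. It passed the filter only through shNT. The protein-coding neighbours Tbpl1 and Eya4, 85.3 kb and 283 kb away, were higher in shARF by 0.75 and 0.67 on the log2 scale (adjusted p = 5.63e-06 and 1.17e-05, edgeR). At this locus the overlapping RNA was therefore detected in 1 group and Tcf21 in neither beyond 2 counts.

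**Figure D4:**
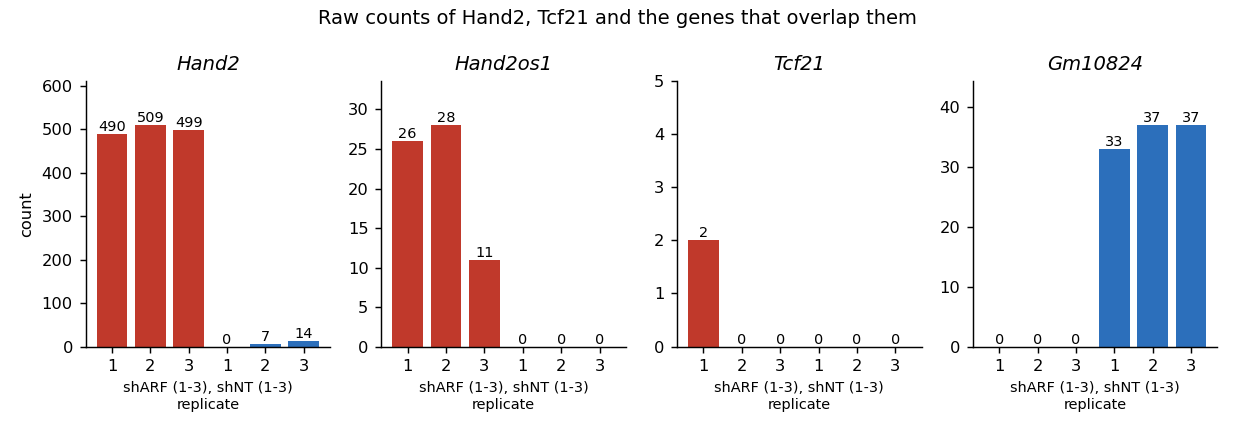
Raw counts (vertical axes, from 0, a scale per gene) of Hand2, of Hand2os1 that overlaps it, of Tcf21 and of Gm10824 that overlaps it, in shARF replicates 1 to 3 and shNT replicates 1 to 3. Hand2 and Hand2os1 were counted mainly or only in shARF, Gm10824 only in shNT, and Tcf21 reached 2 counts in 1 library.

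The other members also have overlapping or adjoining transcripts. Gm29100, antisense to Twist2 with 1477 shared bases of exon, was at 2.07 ± 0.175 CPM in shARF and 2.12 ± 0.0652 CPM in shNT (adjusted p = 0.828, edgeR). Gm29101, within a Twist2 intron on the same strand, fell with Twist2 (log2 fold change -1.27, adjusted p = 0.00147, edgeR). Reads of Gm29101 cannot be told from reads of unspliced Twist2 RNA. Zeb2os, antisense to Zeb2, was at 1.24 ± 0.166 CPM in shARF and 1.02 ± 0.103 CPM in shNT (adjusted p = 0.206, edgeR). Reads in exons that Gm29100 shares with Twist2, or Zeb2os with Zeb2, cannot be told apart either if the counting ignored strand. Hdac9, the histone deacetylase gene 87.8 kb from Twist1, had 0.245, 0.0912 and 0.336 CPM in shARF, against 5.80, 3.70 and 2.60 CPM in shNT (log2 fold change -4.15, adjusted p = 2.87e-04, edgeR). Hdac9 passed the filter on low counts only through shNT. Twistnb on the other side of Twist1 was higher in shARF by 0.50. Ptges, an inducible prostaglandin E synthase gene 8.22 kb from Prrx2, fell by 1.16, while Asb6, 4.64 kb away on the other side, did not pass the test (-0.13, adjusted p = 0.226, edgeR). The genes named here moved with the nearby member in some cases and against it in others, and not every neighbour is named. Over all genes tested, 56.4% were called in either direction.

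RefSeq promoter sequences (GRCm38.p6) were matched for 8 of the 10 genes. The 250 bases before the start are printed for Hand2, the member that differed most, for Twist1 and Twist2, which fell together, and for Snai1, the SNAIL gene that did not pass the test. Capitals mark E-boxes (CANNTG, the bHLH and zinc finger motif, which reads the same on both strands) and the homeodomain core TAATTA.
Hand2, chr8:57320733-57320982, plus strand: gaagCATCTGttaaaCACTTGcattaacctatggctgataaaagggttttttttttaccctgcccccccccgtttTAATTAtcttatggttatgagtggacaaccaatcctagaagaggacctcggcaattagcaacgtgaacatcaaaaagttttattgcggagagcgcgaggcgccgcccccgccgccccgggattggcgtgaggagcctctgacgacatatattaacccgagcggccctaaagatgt
Twist1, chr12:33957421-33957670, plus strand: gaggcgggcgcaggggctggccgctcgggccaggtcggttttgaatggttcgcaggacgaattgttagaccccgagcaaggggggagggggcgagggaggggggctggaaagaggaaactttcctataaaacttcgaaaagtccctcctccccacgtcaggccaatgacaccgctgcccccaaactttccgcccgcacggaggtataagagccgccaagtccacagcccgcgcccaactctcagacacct
Twist2, chr1:91801211-91801460, plus strand: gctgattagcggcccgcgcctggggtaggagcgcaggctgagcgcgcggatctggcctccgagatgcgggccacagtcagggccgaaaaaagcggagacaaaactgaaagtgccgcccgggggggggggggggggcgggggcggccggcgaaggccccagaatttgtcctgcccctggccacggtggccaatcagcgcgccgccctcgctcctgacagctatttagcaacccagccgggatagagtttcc
Snai1, chr2:167537945-167538194, plus strand: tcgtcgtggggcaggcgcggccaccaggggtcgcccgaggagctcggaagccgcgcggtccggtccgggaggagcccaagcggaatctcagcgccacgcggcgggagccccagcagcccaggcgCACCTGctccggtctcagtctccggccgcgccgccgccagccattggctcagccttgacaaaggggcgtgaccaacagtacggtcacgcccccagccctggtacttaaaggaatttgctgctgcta
The Hand2 window holds 2 E-boxes and 1 TAATTA. The E-boxes lie 246 and 235 bases before the start and the homeodomain core 175 bases before it. The Snai1 window holds 1 E-box, of the form CACCTG to which SNAIL and ZEB proteins bind, 126 bases before the start. No E-box or TAATTA lies in the windows of Twist1 and Twist2, whose levels fell together. Prrx1 has 1 TAATTA and no E-box, and Prrx2, Zeb2 (4 annotated starts) and Tcf21 have neither. Among all 32851 windows of the same length, 66.2% hold CANNTG, 17.2% hold CACCTG on either strand and 4.84% hold TAATTA. These matches describe letters in short windows and show no binding.

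Gene positions follow GENCODE M21 on GRCm38. Snai1 lies on chromosome 2 (167538195 to 167542814, plus strand), as do Zeb2 (44983632 to 45117395, minus) and Prrx2 (30834972 to 30881251, plus). Twist2 (91801461 to 91848028, plus) and Prrx1 (163245119 to 163313710, minus) lie on chromosome 1. Snai2 lies on chromosome 16 (14705852 to 14709385, plus), Zeb1 on chromosome 18 (5591860 to 5775467, plus), Twist1 on chromosome 12 (33957671 to 33959829, plus), Hand2 on chromosome 8 (57320983 to 57324633, plus) and Tcf21 on chromosome 10 (22817281 to 22820174, minus). The members thus spread over 7 chromosomes, and those that share a chromosome lie far apart.

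Per kilobase of exon, the order of levels in shARF was Snai2 (61.3 ± 2.22 CPM per kb), Snai1 (36.6 ± 0.806), Prrx2 (34.4 ± 1.29), Prrx1 (28.9 ± 8.0), Twist1 (28.6 ± 1.62), Twist2 (11.6 ± 0.426), Zeb1 (10.5 ± 0.374), Hand2 (4.78 ± 0.146), Zeb2 (4.73 ± 0.155) and Tcf21 (0.0063 ± 0.011; SD, n = 3 each). Prrx2 and Prrx1, Prrx1 and Twist1, and Hand2 and Zeb2 overlapped in that order. In shNT the order was Prrx2 (47.8 ± 3.41 CPM per kb), Twist1 (41.5 ± 1.62), Prrx1 (36.6 ± 8.92), Snai1 (35.5 ± 2.54), Snai2 (34.0 ± 1.56), Twist2 (22.3 ± 1.49), Zeb1 (9.09 ± 1.65), Zeb2 (3.91 ± 0.475), Hand2 (0.0686 ± 0.0726) and Tcf21 (0; SD, n = 3 each). There Twist1 and Prrx1, Prrx1 and Snai1, Snai1 and Snai2, and Hand2 and Tcf21 overlapped. Snai2 thus ranked 1 of the 10 in shARF and 5 in shNT, and Twist1 ranked 5 in shARF and 2 in shNT. These levels use the summed exons of every annotated transcript. With the longest transcript in their place, Prrx1 ranked 2 in both groups and Twist1 ranked 3 in shNT. In shARF Snai1 then ranked 4, Zeb1 lay above Twist2, and Hand2 fell below Zeb2.

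The lists that follow hold genes that act with these factors. Each count of calls stands beside the 28.8% of all tested genes called higher and the 27.7% called lower, and no list was tested against other genes. Of 7 bHLH partners, none was higher and 5 were lower; their median change was -0.42 on the log2 scale. ID proteins bind the E-protein partners of TWIST, HAND and TCF21 and keep them from DNA. The RNAs of Id1, Id2, Id3 and Id4 all fell, while ID protein levels were not measured. Id4 had 1.36, 1.53 and 1.23 CPM in shARF, against 16.7, 14.6 and 16.8 CPM in shNT (log2 fold change -3.54, adjusted p = 7.79e-07, edgeR). Id2 had 12.9, 13.0 and 10.7 CPM in shARF, against 33.8, 33.2 and 17.3 CPM in shNT (-1.21, adjusted p = 0.00606, edgeR), and Id1 and Id3 fell by 0.72 and 0.36. Of the E-proteins, Tcf4 fell (-0.42, adjusted p = 0.0018, edgeR), while Tcf3 (-0.01, 95% interval -0.09 to 0.07) and Tcf12 (0.03, -0.19 to 0.26) did not pass the test.

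Corepressors of SNAIL and ZEB proteins had 10 of 16 members higher and 3 lower (median 0.18), beside 28.8% higher and 27.7% lower over all genes. Ajuba, a LIM protein that tethers SNAIL to its corepressors, was at 161 ± 2.63 CPM in shARF and 84.1 ± 4.36 CPM in shNT (0.93, adjusted p = 3.92e-06, edgeR), and its relatives Limd1 and Wtip rose by 0.42 and 0.51. Suz12, a Polycomb subunit, was higher (0.73, adjusted p = 0.0256, edgeR), with shNT libraries at 82.4, 141 and 77.9 CPM. Ctbp2, which encodes a CTBP corepressor of ZEB proteins, fell slightly (-0.26, adjusted p = 0.00196, edgeR), as did the histone methyltransferase gene Suv39h1 (-0.41). Ctbp1, the other CTBP gene of the list, had more counts, averaging 182 CPM in shARF and 188 CPM in shNT. It did not pass the test (-0.05, adjusted p = 0.243, edgeR). Genes that set the stability of SNAIL and TWIST proteins had 6 of 15 higher and 4 lower (median 0.05). Loxl2, a lysyl oxidase that can stabilise SNAIL, changed most (2.44), Gsk3b, whose kinase marks SNAIL for breakdown, was higher by 0.54, and Pak1 and Mdm2 were lower (-0.40 and -0.34). Protein levels were not measured here.

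Signals that induce these factors had 11 of 20 members higher and 5 lower (median 0.22), beside the same 28.8% and 27.7% of all genes. All 3 TGF-beta ligand genes rose: Tgfb1 by 0.48, Tgfb2 by 0.88 and Tgfb3 by 1.19, the last with 225, 222 and 222 CPM in shARF, against 97.0, 99.2 and 97.8 CPM in shNT (adjusted p = 1.89e-07, edgeR). Jag1, a Notch ligand, was at 150 ± 2.39 CPM in shARF and 44.3 ± 1.56 CPM in shNT (1.76), and Bmp4, a ligand upstream of many mesenchymal factors, rose by 1.27. Met, the receptor of hepatocyte growth factor, had 42.5, 30.7 and 43.0 CPM in shARF, against 91.9, 86.2 and 83.7 CPM in shNT (-1.17, adjusted p = 2.69e-04, edgeR), and Stat3 fell by 0.67.

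Of 24 epithelial genes that SNAIL and ZEB proteins are known to repress, 14 could be tested, with 4 higher and 5 lower (median -0.36). Cdh1, which encodes E-cadherin and is the classical target of this repression, had 4.80, 4.84 and 4.76 CPM in shARF, against 2.28, 1.93 and 2.21 CPM in shNT (log2 fold change 1.17, adjusted p = 7.14e-05, edgeR). Cdh1 and its repressor gene Snai2 were thus both higher in shARF. The keratin gene Krt19 was also higher (0.33), while the keratin gene Krt18 (-6.38) and the desmosomal gene Pkp3 (-3.12) were lower in shARF. Krt18 (10, 10 and 0 counts in shARF) and Pkp3 (12, 5 and 14 counts in shARF) passed the filter on low counts only through shNT. Epithelial regulators had 3 of 11 members tested, with Klf4 (1.75) and Esrp2 (0.88) higher and Klf5 (-0.33) lower, while Grhl3, Ovol1, Ovol2, Esrp1 and Elf5 had no count in any library. The 8 epithelial markers summed to 7.05 to 7.73 CPM in shARF and 15.4 to 17.5 CPM in shNT. Most of the shNT sum was Krt18, at 13.9, 12.2 and 12.1 CPM, against at most 0.228 CPM in shARF. Cdh1, also in the sum, was higher in shARF. Krt14 was counted only in shARF, at 1.94, 2.01 and 1.79 CPM. The part of epithelial cells in these results was not tested.

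Mesenchymal genes had 13 of 27 members higher and 6 lower (median 0.11). Itga5, the fibronectin receptor subunit gene, was at 719 ± 15.5 CPM in shARF and 298 ± 1.09 CPM in shNT (1.27, adjusted p = 1.54e-07, edgeR). Pdgfra, the receptor that marks many embryonic fibroblasts, had 92.4, 88.8 and 93.0 CPM in shARF, against 497, 508 and 500 CPM in shNT (-2.46, adjusted p = 8.76e-08, edgeR). The proteoglycan gene Dcn fell by 2.12. Among the usual EMT marks, Vim, the vimentin gene, rose by 0.11 and Cdh2, the N-cadherin gene, by 0.24. Fn1 (-0.03, 95% interval -0.09 to 0.03) did not pass the test. Cdh1, given above, rose by 1.17. The cadherin gene Cdh11 of the mesenchymal list was lower, at 273 ± 14.1 CPM in shARF and 601 ± 6.52 CPM in shNT.

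**Figure D5:**
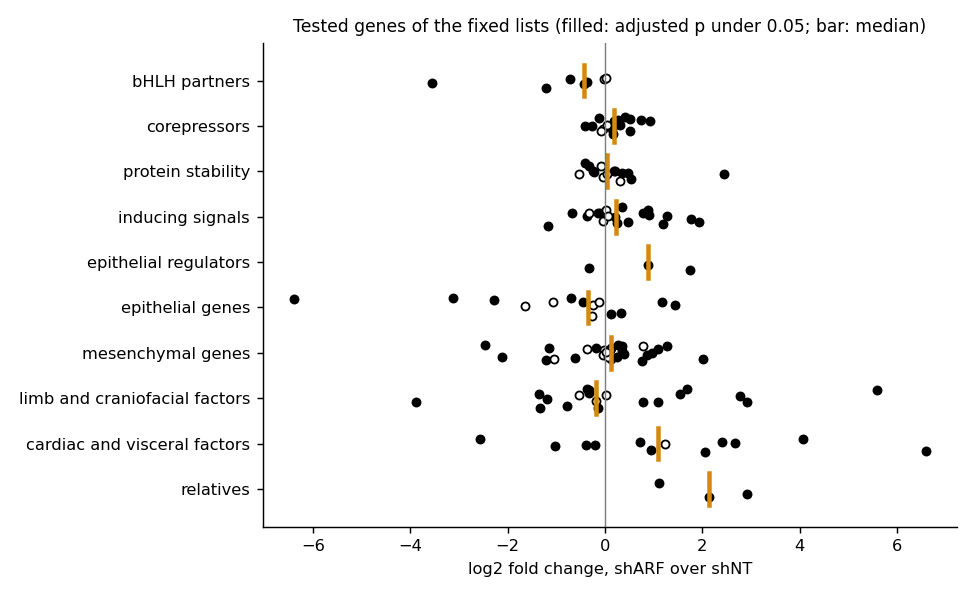
Log2 fold change of shARF over shNT (horizontal axis) for every tested gene of the 10 lists around the factors; filled points passed an adjusted p of 0.05, and the upright bar is the list's median. No bHLH partner that passed lies above 0, and the cardiac and visceral factors reach 6.59 at Wt1.

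Factors that share a lineage with these genes split. Of 17 cardiac and visceral mesenchyme factors, 12 were tested, with 7 higher and 4 lower (median 1.09). Wt1, a zinc finger factor of epicardium, mesothelium and gonad, resembled Hand2, with 9.53, 9.99 and 9.10 CPM in shARF, against 0, 0.0616 and 0.243 CPM in shNT (6.59, adjusted p = 3.55e-05, edgeR). Like Hand2, Wt1 passed the filter on low counts only through shARF, and its fold rests on 0, 3 and 10 counts in shNT. Tbx20, a cardiac T-box factor, was at 22 ± 0.925 CPM in shARF and 1.31 ± 0.195 CPM in shNT (4.07), while Mef2c (-2.57) and Nr2f2 (-1.03) fell. Limb and craniofacial factors, among which PRRX and TWIST genes act, had 7 of 23 members higher and 9 lower (19 tested, median -0.18). Shox2, a homeobox gene of the proximal limb, had 4.75, 4.24 and 4.72 CPM in shARF, against 66.9, 63.6 and 73.0 CPM in shNT (-3.89, adjusted p = 2.25e-07, edgeR), and Osr1 fell by 1.37, whereas Meox2 (5.60) and Msx1 (1.69) rose. Meox2, with 3, 0 and 4 counts in shNT, also passed the filter only through shARF. Of 10 relatives of the members 5 had no count in any library, among them Hand1, the paralog of Hand2, and the 3 tested were higher. Tcf24 had the largest fitted change of the 3 (2.92), but Tcf24 and Tcf23 averaged under 1 CPM in both groups. Both passed the filter on low counts only through shARF, so they could only be called higher. Scx, a bHLH factor of tendon, was at 52.5 ± 1.95 CPM in shARF and 24.2 ± 1.15 CPM in shNT (1.12, adjusted p = 4.7e-06, edgeR).

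Markers of other cell types moved beside these changes. Of 7 mesothelial markers, all tested, 5 were higher and 2 lower, beside 28.8% higher and 27.7% lower over all genes. Upk1b, Lrrn4 and Wt1 among them passed the filter on low counts only through shARF, so they could only be called higher. Upk1b had 9.84, 10.0 and 8.88 CPM and Lrrn4 8.41, 8.71 and 9.60 CPM in shARF, with no count of either in shNT, but Msln and Bnc1 fell by 0.63 and 0.65, and the summed level of the list was 141 to 144 CPM in shARF and 135 to 139 CPM in shNT. Of 6 chondrocyte markers, which accompany limb mesenchyme, 4 were tested and 3 of them fell, beside the same 27.7% of all genes. Col2a1 was at 9.04 ± 1.03 CPM in shARF and 120 ± 2.19 CPM in shNT, Acan fell by 3.56 and Sox9 by 0.77, and Col9a1 and Matn1 had no count in any library. The list summed to 88.6 to 92.5 CPM in shARF and 275 to 285 CPM in shNT. The part of mesothelial or chondrogenic cells in the changes of Hand2, TWIST and PRRX genes was not tested. Muscle markers (Myod1, Myog and Pax7 at 0) and Schwann cell markers (Sox10 and Foxd3 at 0) summed to at most 1.80 CPM in any library.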

How the data were processed

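RNA of 6 libraries was made with a stranded, ribosome-depleting kit, per the labels' protocols. The authors deposited whole-number counts per gene for 54752 mouse Ensembl IDs. Tools named, without role or order, per the submitters' processing notes, were DESeq2 1.34.0, StringTie 1.3.2, Picard 2.13.2, SAMtools 0.1.19, HISAT2 2.1.0 and Trim Galore 0.4.1, with build GRCm38. Not given in the sources used here are the counter, annotation release, strand setting and duplicate handling. Another 6 columns match no sample of the series and were not used; the shARF columns carry other index numbers than the titles and were matched on group and replicate.

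Symbols, exons and positions came from GENCODE M21 (54723 IDs matched without version). The test was edgeR 4.0.16 (R 4.3.3), glmQLFit and glmQLFTest, with group as sole term, TMM, filterByExpr (minimum count 10, minimum total 15) and Benjamini-Hochberg adjustment over 17128 genes; the threshold was 0.05. Fold changes are shARF over shNT; intervals are 95%. Library totals were 40.3 M to 47 M counts. The steps were tested on simulated counts. No library repeated another: even within a group, chi-square per gene was 13.8 or more.

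The members and the 10 lists around them were chosen with earlier results of these data known. From each list, the 2 most changed in each direction were named, if called, averaging 1 CPM or more and without overlap of the groups; other genes were named for their role, after their values were seen. One gene that this rule names is not reported here. Alternatives were DESeq2 1.42.0, RLE, library sizes alone, no filter, at least 1 CPM in 3 libraries, limma-voom 3.58.1, a replicate block, each library left out, and another gene length.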

Additional observations from a re-analysis of the deposited data

How the results depend on the processing

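Snai2, Twist1, Twist2, Prrx2, Hand2 and Cdkn2a kept their direction and passed the test, and Snai1, Zeb1 and Prrx1 did not pass it, under all 13 alternatives (DESeq2, RLE, library sizes alone, both filters, limma-voom, the replicate block and each of 6 libraries left out). The sign of the Snai1 value, -0.05 to 0.10, was not stable. Zeb2 was the exception among members: its log2 fold change was 0.18 with library sizes alone, and 0.20 to 0.37 with 1 library left out, with 4 of those 6 not passing; the cause was not tested. Log2 fold changes ranged from 0.76 to 0.89 for Snai2, -0.63 to -0.50 for Twist1, -1.03 to -0.90 for Twist2, -0.57 to -0.42 for Prrx2 and 5.56 to 7.19 for Hand2. The labels link same-numbered libraries by a number only. The correlations of their deviations (-0.0904, -0.0211 and 0.00647) cannot decide whether these libraries were prepared in pairs. A replicate block changed no member's call (Hand2 6.18, adjusted p = 0.00121, edgeR) and called 4604 genes higher and 4309 lower. With at least 1 CPM in 3 libraries, 1 relative was called in place of 3, since fewer genes are tested. Of the paralog shares, those of Snai2 and Twist2 kept their sign in every alternative, and those of Zeb2 and Prrx2, within replicate spread, did not. At these depths Tcf21 cannot be told from absent.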
